A study of Mus musculus with 6 samples.

Results

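Collagen chain genes were compared between NIH3T3 cells given IPRN and NIH3T3 cells given DMSO. Every protein-coding gene whose symbol is Col, a type number, the letter a and a chain number was taken, which gave 44 of the 55401 genes in the tables. By type, 9 were fibrillar chains (types I, II, III, V and XI), 6 were basement membrane chains (type IV), 6 were microfibrillar chains (type VI) and 23 belonged to other types. NIH3T3 is an immortalised line of mouse embryonic fibroblasts, and the labels give embryo as tissue, fibroblast as cell type and WT as genotype in both groups. In 3 libraries (DMSO 1 to 3) the cells received the solvent DMSO, and in 3 (IPRN 1 to 3) they received IPRN, a code name that the labels do not resolve. According to the design text, the cells were stimulated with hydrogen peroxide and TGF-β to model cancer-associated fibroblasts, and sequencing was meant to show which signalling pathways IPRN altered. The title names angelicin, a plant furanocoumarin. Neither dose nor time is given for IPRN, for TGF-β or for hydrogen peroxide, nor whether the DMSO cells received both stimuli. The labels do not say that replicates were separate cultures, so the p-values speak only to how much these libraries varied, and that variation may be technical.

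A collagen molecule is a helix of intertwined α chains, each encoded by its own Col gene. Fibrillar collagens are secreted as procollagens, trimmed at their ends and packed into the fibrils that give connective tissue its tensile strength; type IV collagen forms the sheet-like network of basement membranes, and type VI forms beaded filaments around cells. Fibroblasts make most of the fibrillar collagen of connective tissue, and TGF-β is a known inducer of collagen synthesis in them. Type V chains are incorporated into type I fibrils and limit fibril diameter.

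Each library held between 60320282 and 78629444 counts. Of 12 fibroblast markers, 11 were tested and Tcf21 had a count of 0 throughout. At an adjusted p under 0.05 in edgeR, 3 of the 11 were called, against 5.47% of all genes tested: Fbln2 rose 1.35-fold, and Pdgfra and Prrx1 fell by 0.74 and 0.26 on the log2 scale. Vim and S100a4 had log2 fold changes of -0.13 and -0.33 and did not pass (adjusted p = 0.119 and 0.0823), with every IPRN library below every DMSO library. The summed level of the markers was 5656 to 5795 CPM (counts scaled to library size with TMM normalization) in DMSO and 5956 to 6081 CPM in IPRN. Chondrocyte markers summed to 64.4 to 70.0 CPM, mostly from Sox9, with Epyc, Hapln1, Snorc and Ucma at 0. Osteoblast markers summed to 35.3 to 43.8 CPM with Ibsp at 0, and smooth muscle and pericyte markers to 7.33 to 9.26 CPM in DMSO and 10.4 to 10.8 CPM in IPRN with Kcnj8 at 0. The sums were 1.61 to 3.66 CPM for endothelial and 0.574 to 4.28 CPM for epithelial markers. Macrophage markers summed to 12.5 to 18.4 CPM in DMSO, to 14.9 and 14.3 CPM in IPRN 1 and 2 and to 35.8 CPM in IPRN 3. Hepatocyte markers summed to 4.54 CPM in DMSO 1 and 5.73 CPM in IPRN 3 but to between 42.6 and 123.5 CPM in the other libraries, highest in IPRN 1. The fibroblast sum and the smooth muscle and pericyte sum were higher in every IPRN library than in every DMSO library. Fbln2 held the most of the fibroblast sum, at 2070 to 2155 CPM in DMSO and 2798 to 2871 CPM in IPRN. Vim, S100a4, Pdgfra and Prrx1 were lower under IPRN. Of 4 tested smooth muscle and pericyte markers 0 were called. Cnn1 and Notch3 had log2 fold changes of 0.39 and 0.50, and Des and Rgs5 of -0.87 and -0.90. The endothelial sum was lower in every IPRN library, and in DMSO it came mostly from Cdh5 (2.42 to 2.68 CPM). Of 5 tested endothelial markers 0 were called. Cdh5, Vwf and Kdr had log2 fold changes of -0.84, -0.72 and -3.36, and Pecam1 and Tek of 0.86 and 0.12. The part of these markers in the collagen values was not tested. In these bulk samples, fewer cells of a type and less RNA per cell cannot be told apart.

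IPRN-treated cells had more RNA of the main type IV collagen chains and of 2 type V chains than DMSO-treated cells. Col5a1, Col5a3, Col4a1, Col4a2 and Col20a1 rose by between 1.32-fold and 1.57-fold. The abundant type I chains Col1a1 and Col1a2 were higher in IPRN 2 and IPRN 3 but not in IPRN 1 and did not pass the test, and none of the type III and type VI chains passed it either. Of the 44 chains, 31 had enough counts to be tested, 5 rose, 0 fell and 26 were not called at an adjusted p under 0.05 in edgeR's quasi-likelihood test. Among all 17159 genes tested, 5.47% were called, 2.46% higher and 3.01% lower. The lower count of 0 compares with 3 chains lower at an unadjusted p under 0.05 in edgeR (11 higher) and with 2 chains called lower in DESeq2 (7 higher). The median log2 fold change was 0.10 over the 31 chains and 0.00 over all genes tested, and 20 chains lay above 0. For 10 chains every IPRN library lay above every DMSO library and for 3 chains all of them lay below, against 14.9% and 14.7% of all genes tested. By class, 2 of 9 fibrillar, 2 of 6 basement membrane, 0 of 3 tested microfibrillar and 1 of 13 tested other chains rose. With a replicate block Col5a1 was the only chain called, with any 1 library left out 2 to 8 chains were called, and with DMSO 1 and IPRN 3 both left out 0 were. In that last fit the log2 fold changes of the 5 chains remained between 0.37 and 0.69.

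**Figure D1:**
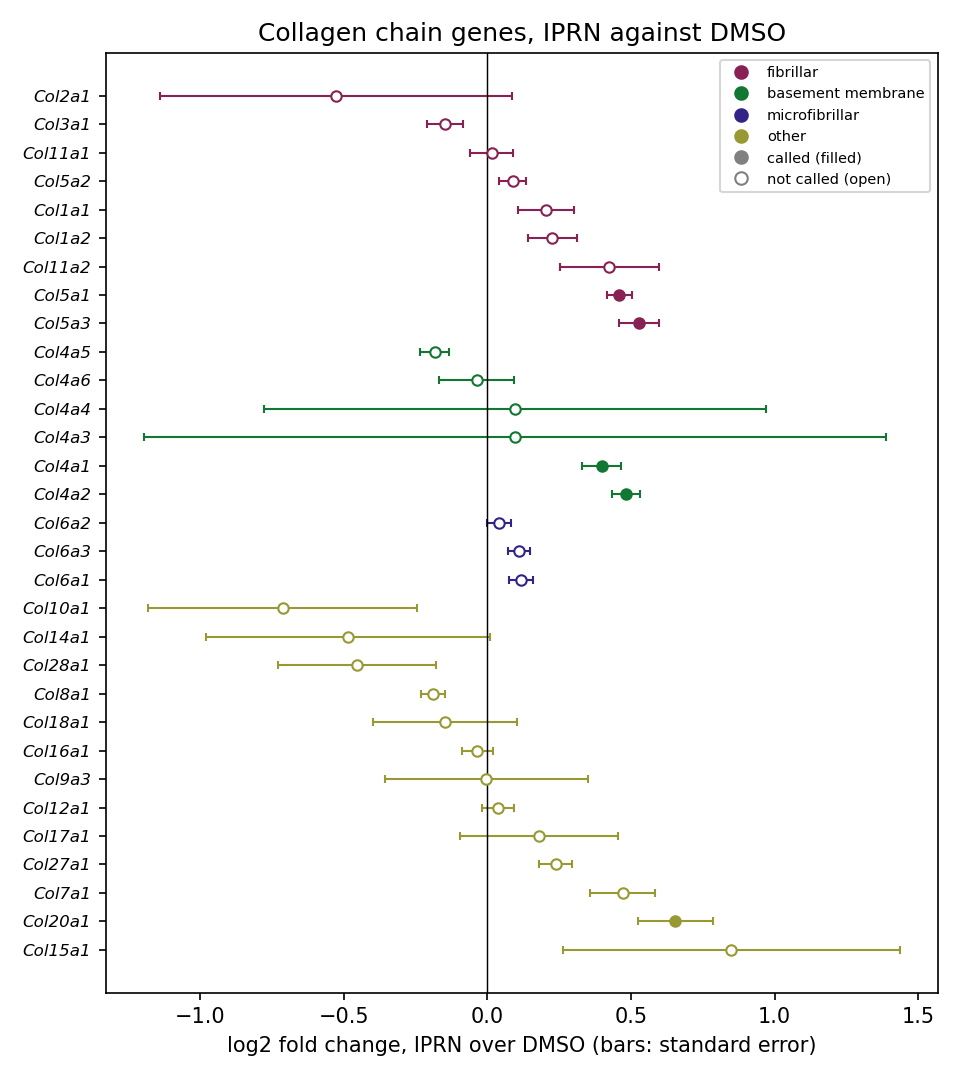
Log2 fold change of the 31 tested collagen chain genes, IPRN over DMSO, with standard errors (horizontal bars), sorted within each class. Filled points passed an adjusted p of 0.05 in edgeR: Col5a1 and Col5a3 among the fibrillar chains, Col4a1 and Col4a2 among the basement membrane chains and Col20a1 among the others, all to the right of 0.

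Collagen chains made up 1.87%, 1.85% and 1.93% of the total count in the DMSO libraries, against 1.89%, 2.29% and 2.26% in the IPRN libraries. IPRN 1 lay within the DMSO range, whereas the other IPRN libraries lay above it. Most of these counts came from the 2 type I chains, which held 62.4%, 62.1% and 63.1% of the collagen count in DMSO and 60.7%, 65.5% and 64.7% in IPRN. Summed over a class, the deposited FPKM (fragments scaled by gene length and library size) of the basement membrane chains came to 106.3 ± 0.596 in DMSO and 137.9 ± 4.60 in IPRN (SD, n = 3). The corresponding sums were 1609 ± 43.3 and 1848 ± 234.7 for the fibrillar chains, 211.3 ± 2.03 and 227.0 ± 4.86 for the microfibrillar chains and 85.1 ± 0.849 and 83.7 ± 3.41 for the others. All 3 IPRN libraries lay above the DMSO libraries in the basement membrane sum (134.7 to 143.1 against 105.9 to 107.0) and in the microfibrillar sum (223.1 to 232.5 against 209.3 to 213.3). The fibrillar sum overlapped, since IPRN 1 stood at 1578 and DMSO ranged from 1572 to 1656.

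In order of mean FPKM over the 6 libraries, Col1a1 stood at 896.8, Col1a2 at 448.7, Col5a2 at 138.0, Col6a1 at 124.8, Col5a1 at 118.3 and Col3a1 at 115.3. Below these came Col4a1 (54.7 FPKM), Col4a2 (53.6), Col6a3 (52.9), Col16a1 (48.4) and Col6a2 (41.5), and the remaining chains were under 16 FPKM. The levels depend on the gene length used: the length implied by count and FPKM was 1.11 to 1.12 times the union of all annotated exons (GENCODE M21) in the 24 chains where it could be computed. That union is 12426 bases for Col1a2 against 5348 bases for its transcript with the longest coding sequence, and 6563 against 5930 bases for Col1a1. Per kilobase of that transcript, an alternative chosen after seeing the data, Col1a2 stood at 1159 CPM, Col1a1 at 1103, Col3a1 at 226.3 and Col5a2 at 222.1. The order of the type I chains thus turned with the length used, and Col3a1 moved from the sixth to the third rank.

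**Figure D2:**
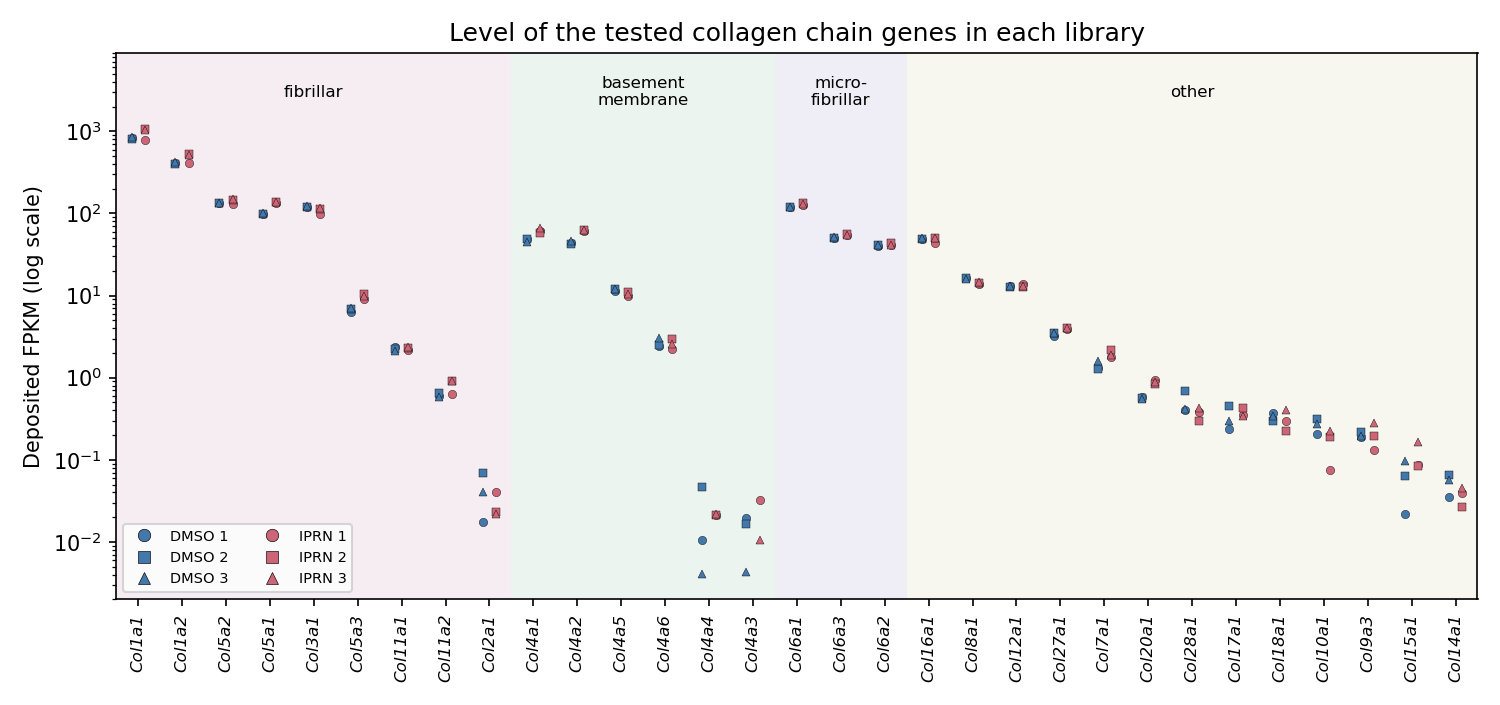
Deposited FPKM (log scale) of the 31 tested collagen chain genes in each library, by class and in order of mean level; blue symbols are DMSO and red symbols IPRN libraries. Col1a1 and Col1a2 stand highest at a mean of 896.8 and 448.7 FPKM, and levels of zero cannot be drawn on this axis.

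The promoter regions of 4 of the chains that rose are shown because those of Col4a1 and Col4a2 overlap and because the type V chains could be set beside them. Each window runs from 250 bases before to 50 bases after the gene start in RefSeq (GRCm38.p6), 5′ to 3′ on the gene's strand; windows were found for 35 of the 44 chains and 24 of the 31 tested. Capitals mark matches, on either strand, to any of 4 motifs. The TATA box was searched as TATAAA. The CCAAT box was searched by the letters of its name. The GC box was searched as GGGCGG. The AP-1 site was searched as TGANTCA. The windows lie at chr8:11312777-11313076 (Col4a1, minus strand), chr8:11312555-11312854 (Col4a2, plus strand), chr2:27886175-27886474 (Col5a1, plus strand) and chr9:20815018-20815317 (Col5a3, minus strand).
Col4a1: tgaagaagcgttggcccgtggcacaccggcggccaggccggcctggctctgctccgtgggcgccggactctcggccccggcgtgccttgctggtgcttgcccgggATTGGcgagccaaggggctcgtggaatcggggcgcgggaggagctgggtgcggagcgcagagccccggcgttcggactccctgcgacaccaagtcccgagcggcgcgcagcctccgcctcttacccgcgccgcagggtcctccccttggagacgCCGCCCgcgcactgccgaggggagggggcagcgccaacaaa
Col4a2: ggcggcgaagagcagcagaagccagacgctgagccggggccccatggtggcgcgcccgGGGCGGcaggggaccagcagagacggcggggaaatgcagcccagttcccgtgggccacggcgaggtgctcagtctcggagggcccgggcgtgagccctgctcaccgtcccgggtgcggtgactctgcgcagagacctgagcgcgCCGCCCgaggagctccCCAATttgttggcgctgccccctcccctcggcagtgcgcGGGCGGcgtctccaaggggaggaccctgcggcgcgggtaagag
Col5a1: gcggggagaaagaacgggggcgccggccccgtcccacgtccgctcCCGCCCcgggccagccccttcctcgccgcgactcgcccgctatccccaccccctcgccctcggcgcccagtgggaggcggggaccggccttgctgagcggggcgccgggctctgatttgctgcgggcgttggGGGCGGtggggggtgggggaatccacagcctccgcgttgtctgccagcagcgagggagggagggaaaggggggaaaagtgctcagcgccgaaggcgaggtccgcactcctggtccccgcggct
Col5a3: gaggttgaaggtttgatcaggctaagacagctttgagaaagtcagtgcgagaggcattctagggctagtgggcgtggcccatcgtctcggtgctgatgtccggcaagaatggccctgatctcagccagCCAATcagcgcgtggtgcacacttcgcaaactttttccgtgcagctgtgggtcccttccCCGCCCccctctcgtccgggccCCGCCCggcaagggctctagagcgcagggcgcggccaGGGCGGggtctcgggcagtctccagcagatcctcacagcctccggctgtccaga
Col4a1 and Col4a2 start head to head and overlap by 22 bases. The upstream part of each window thus lies inside the other gene. A stretch of 78 bases (chr8:11312777-11312854) belongs to both windows as reverse complements. The GC box of the Col4a1 window and the last GC box of the Col4a2 window are the same bases of this stretch, read from opposite strands. Counted from the start of each window, Col4a1 held a CCAAT box at base 106 and a GC box at base 260, and Col4a2 a CCAAT box at base 219 and GC boxes at bases 59, 203 and 258. Col5a1 held GC boxes at bases 46 and 178 and no CCAAT box, and Col5a3 a CCAAT box at base 129 and GC boxes at bases 188, 210 and 247. None of the 4 windows held the TATA or AP-1 letters. The GC content was 74.0%, 73.7%, 75.0% and 63.3% in Col4a1, Col4a2, Col5a1 and Col5a3, against a median of 60.3% over the windows of tested genes and 59.3% over those of tested chains. A high value was not limited to chains that rose, since the window of Col16a1, which was not called, had 74.3%. The window of Col20a1, the other chain that rose, had a GC content of 50% and held none of the 4 motifs.

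Such matches are common: of 14080 windows of tested genes, 59.8% held a GC box, 38.0% a CCAAT box, 7.86% a TATA box and 5.41% an AP-1 site. Over all 32851 windows the shares were 35.7%, 37.4%, 13.6% and 7.81%. Of 26 windows of tested collagen chains, 16 held a GC box, 10 a CCAAT box and 4 a TATA box (Col3a1, Col10a1, Col11a2 and Col17a1), and the AP-1 letters stood in 1 (Col6a1). A match is a string of letters, not a measured binding site.

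Among the fibrillar chains, Col5a1, the α1 chain of type V collagen, rose. It measured 939.4, 923.7 and 981.1 CPM in DMSO 1, 2 and 3. In IPRN 1, 2 and 3 it measured 1289, 1317 and 1306 CPM. All IPRN values lay above all DMSO values, and the IPRN libraries differed little from each other. The rise was 1.38-fold, from 948.1 ± 29.6 to 1304 ± 14.1 CPM (SD, n = 3), where the log2 fold change was 0.46 ± 0.042 (SE) and the edgeR adjusted p was 0.0030. Dropping any 1 library kept the call. Col5a1 (ENSMUSG00000026837) lies on chromosome 2 from 27886425 to 28039514, plus strand, GRCm38. Its exons share 99 and 113 bases with the models 2810430I11Rik and Gm13372 on the opposite strand, 1.17% and 1.33% of its exon bases, and the library protocol does not mark strand. Those models held 100 to 254 counts per library, against 56426 to 98193 for Col5a1.

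Col5a3, which encodes the α3 chain of type V collagen, was far less abundant. Its values were 48.5, 51.7 and 53.9 CPM in DMSO and 69.5, 78.7 and 74.2 CPM in IPRN, again without overlap. It rose 1.44-fold, from 51.4 ± 2.70 to 74.1 ± 4.60 CPM, with a log2 fold change of 0.53 ± 0.070 and an edgeR adjusted p of 0.0125. The call was lost without DMSO 1 (adjusted p = 0.0651), without DMSO 2 (0.0718), without IPRN 3 (0.0502) and with the replicate block (0.0620). Col5a3 (ENSMUSG00000004098) lies on chromosome 9 from 20770050 to 20815067, minus strand, and shares no exon base with another model.

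Col5a2, the α2 chain that joins α1 in the common type V trimer, measured 1430, 1419 and 1431 CPM in DMSO and 1433, 1555 and 1560 CPM in IPRN. IPRN 1 was barely above the highest DMSO library and the other IPRN libraries were higher. The log2 fold change was 0.09 ± 0.047 with an edgeR adjusted p of 0.344, and 0.13 with an adjusted p of 0.0321 without IPRN 1.

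The type I chains form the main fibrillar collagen of skin, tendon and bone. Col1a2, the α2 chain, measured 5689, 5526 and 5926 CPM in DMSO and 5781, 7247 and 7015 CPM in IPRN. Col1a1, the α1 chain, measured 6021, 5921 and 6301 CPM in DMSO and 5881, 7704 and 7426 CPM in IPRN. IPRN 1 fell among or below the DMSO libraries for both chains, and IPRN 2 and 3 lay above all of them. With all libraries the log2 fold changes were 0.20 ± 0.099 for Col1a1 and 0.23 ± 0.086 for Col1a2, with edgeR adjusted p-values of 0.292 and 0.183. Without IPRN 1 both were called, at 1.24-fold and 1.25-fold with adjusted p-values of 0.00854 and 0.00909. IPRN 1 was also the library that differed most from its own group in the counts of all genes, with a chi-square per degree of freedom of 89.9 and 97.6 against 34.0 to 48.8 for the other replicate pairs. It held the highest sum of hepatocyte markers as well (123.5 CPM), and the part of those transcripts in the type I values was not tested.

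Col3a1, the chain of type III collagen, which forms mixed fibrils with type I, measured 1327, 1301 and 1344 CPM in DMSO and 1088, 1246 and 1249 CPM in IPRN. All IPRN libraries lay below all DMSO libraries, IPRN 1 furthest. The log2 fold change was -0.15 ± 0.062 with an edgeR adjusted p of 0.223. Its exons share 141 bases (1.44%) with the microRNA model Gm47302 on the same strand, which held 3154 to 5709 counts per library.

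The remaining fibrillar chains are best known from cartilage and were low here. Col11a1 ranged from 29.9 to 34.0 CPM over the 6 libraries with a log2 fold change of 0.02 ± 0.075 (edgeR adjusted p = 0.942). Col11a2 measured 4.58, 5.04 and 4.45 CPM in DMSO and 4.90, 7.03 and 6.97 CPM in IPRN, where IPRN 1 lay among the DMSO values (log2 fold change 0.42 ± 0.171, adjusted p = 0.207). Col2a1, the main chain of cartilage, stayed under 0.72 CPM in every library (11 to 52 counts) and had an adjusted p of 0.698.

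**Figure D3:**
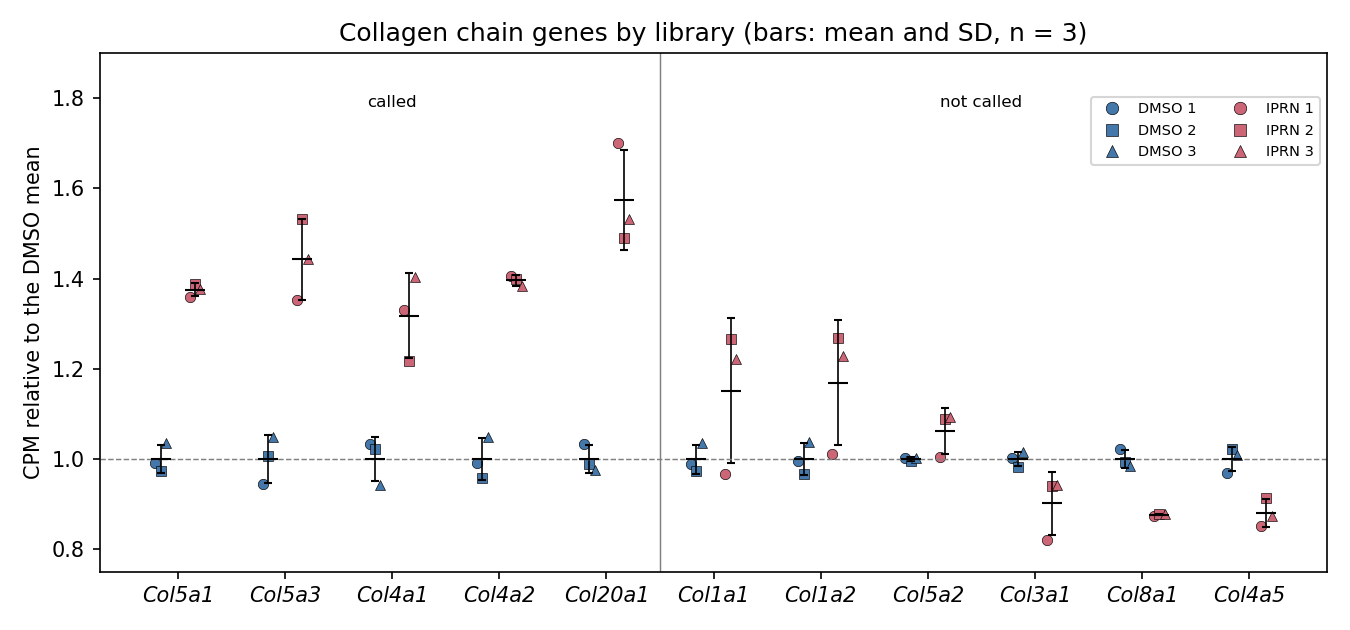
CPM of 11 collagen chain genes in each library divided by the mean of the 3 DMSO libraries (dashed line at 1); horizontal ticks and bars are the mean and SD of each group. The 5 chains on the left were called, with every IPRN library above every DMSO library; among those on the right, IPRN 1 (red circle) lies at or below the DMSO level for Col1a1 and close to it for Col1a2 and Col5a2.

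Col4a1 and Col4a2 encode the chains of the ubiquitous type IV collagen trimer and were the main basement membrane chains of these cells. Col4a2 measured 326.5, 315.3 and 345.4 CPM in DMSO and 462.8, 460.6 and 455.2 CPM in IPRN. Col4a1 measured 405.3, 400.8 and 369.7 CPM in DMSO and 521.7, 477.5 and 550.5 CPM in IPRN. For both chains every IPRN library lay above every DMSO library, with the IPRN values close together for Col4a2 and more spread for Col4a1. Col4a2 rose 1.40-fold, from 329.1 ± 15.2 to 459.5 ± 3.92 CPM, with a log2 fold change of 0.48 ± 0.049 and an edgeR adjusted p of 0.00481. Col4a1 rose 1.32-fold, from 392.0 ± 19.4 to 516.6 ± 36.7 CPM, with a log2 fold change of 0.40 ± 0.067 and an adjusted p of 0.0253. Dropping any 1 library kept the call of Col4a2 (adjusted p up to 0.0416). Col4a1 was called only without IPRN 1 or IPRN 2, with adjusted p-values of 0.0933 without DMSO 1, 0.104 without DMSO 2, 0.0944 without DMSO 3 and 0.0676 without IPRN 3. The replicate block ended both calls, at 0.0610 for Col4a2 and 0.111 for Col4a1.

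Both genes lie on chromosome 8: Col4a1 (ENSMUSG00000031502) from 11198423 to 11312826 on the minus strand and Col4a2 (ENSMUSG00000031503) from 11312805 to 11449287 on the plus strand. Their exons share 22 bases at the common start, 0.295% and 0.332% of the exon bases of Col4a1 and Col4a2. Col4a2 also shares 43 bases with Gm15419, which held 0 to 4 counts per library.

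The other type IV genes are arranged in head-to-head pairs too, Col4a3 with Col4a4 on chromosome 1 (71 bases apart) and Col4a5 with Col4a6 on the X chromosome (1308 bases apart). Col4a5 measured 86.2, 90.8 and 89.6 CPM in DMSO and 75.7, 81.2 and 77.6 CPM in IPRN. Every IPRN library lay below every DMSO library, the opposite order to Col4a1 and Col4a2. The log2 fold change of Col4a5 was -0.18 ± 0.052 with an edgeR adjusted p of 0.0916, and DESeq2 gave 0.0322. Its neighbour Col4a6 measured 21.6, 21.9 and 26.7 CPM in DMSO and 19.9, 25.9 and 22.7 CPM in IPRN, which overlapped (log2 fold change -0.04 ± 0.131, adjusted p = 0.917). Col4a3 and Col4a4, known from the kidney glomerulus, held 0 to 40 counts per library and had adjusted p-values of 0.981 and 0.971.

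Type VI collagen is assembled from the α1, α2 and α3 chains of Col6a1, Col6a2 and Col6a3. Col6a1 measured 578.2, 582.9 and 588.6 CPM in DMSO and 632.5, 647.4 and 617.5 CPM in IPRN. Col6a3 measured 673.6, 673.1 and 685.0 CPM in DMSO and 731.6, 737.2 and 722.2 CPM in IPRN. The groups did not overlap for either chain, but neither passed the test, with log2 fold changes of 0.12 ± 0.041 and 0.11 ± 0.039 and edgeR adjusted p-values of 0.154 and 0.158. Col6a2 ranged from 372.9 to 387.0 CPM in DMSO and from 381.8 to 396.9 CPM in IPRN, with overlap, a log2 fold change of 0.04 ± 0.042 and an adjusted p of 0.661. No microfibrillar chain was called in DESeq2, and 2 were higher at an unadjusted p under 0.05 in edgeR. The alternative chains Col6a5 and Col6a6 had a count of 0 in every library, and Col6a4 held 0, 4 and 8 counts in DMSO and 9, 4 and 0 in IPRN.

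Among the chains of other types, Col20a1, a chain of the family of fibril-associated collagens with interrupted helices, rose 1.57-fold at a low level. It measured 3.36, 3.22 and 3.17 CPM in DMSO (202, 234 and 249 counts) and 5.53, 4.84 and 4.98 CPM in IPRN (394, 361 and 321 counts). The groups did not overlap, and IPRN 1 was highest. The log2 fold change was 0.65 ± 0.130 with an edgeR adjusted p of 0.0378. The call was lost in each of the 6 fits with 1 library left out (adjusted p 0.0655 to 0.143), with no filter on low counts (0.0769), with a liver transcript term (0.0748) and with the replicate block (0.137). Col20a1 (ENSMUSG00000016356) lies on chromosome 2 from 180986535 to 181017714, plus strand, and shares 79 exon bases (1.54%) with the model BX649560.1 on the same strand.

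The 5 most abundant chains of the other types were Col16a1, Col8a1, Col12a1, Col27a1 and Col7a1. Col8a1, a chain of the hexagonal network of type VIII collagen, measured 144.4, 140.5 and 139.1 CPM in DMSO and 123.7, 124.0 and 124.1 CPM in IPRN. The IPRN libraries were nearly equal and all below DMSO. The log2 fold change was -0.19 ± 0.042 with an edgeR adjusted p of 0.0505, just outside the threshold, and Col8a1 was called lower with size factors by relative log expression (0.0496), with a filter at a mean of 50 counts (0.0406), without IPRN 1 (0.0469) and in DESeq2 (0.00333).

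Col7a1 forms the anchoring fibrils below epithelia, and Col27a1 belongs to a further fibrillar type. Col7a1 measured 15.3, 14.8 and 18.2 CPM in DMSO and 20.8, 24.5 and 21.7 CPM in IPRN. Col27a1 measured 46.4, 49.99 and 50.3 CPM in DMSO and 58.3, 57.8 and 56.9 CPM in IPRN. The groups did not overlap for either chain, yet neither passed the test: the log2 fold changes were 0.47 ± 0.114 and 0.24 ± 0.057 and the edgeR adjusted p-values 0.0647 and 0.0640, whereas DESeq2 gave 0.00467 and 0.00859. Col12a1 and Col16a1, which associate with fibrils, overlapped between groups at 214.6 to 239.5 CPM and 335.0 to 375.8 CPM, with log2 fold changes of 0.04 ± 0.055 and -0.04 ± 0.055. The other 7 tested chains (Col9a3, Col10a1, Col14a1, Col15a1, Col17a1, Col18a1 and Col28a1) stayed under 1 FPKM and had log2 fold changes from -0.71 to 0.85 with none called.

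Counts too low for the test were listed for 13 chains. Col9a1, Col13a1, Col19a1 and Col26a1 had a count of 0 in all 6 libraries, as had Col6a5 and Col6a6, which allows a level of up to 0.0382 to 0.0497 CPM per library (3 counts, counting error only). Col22a1, found at tissue junctions, held 16, 6 and 41 counts in the DMSO libraries and 0 in every IPRN library. Col8a2 held 0 in every DMSO library and 12, 8 and 0 in IPRN. Col9a2, Col23a1, Col24a1 and Col25a1 held at most 19 counts in any library. Col6a4 and Col25a1 had counts only in the 4 libraries that also carried hepatocyte transcripts, and the part of those transcripts in these counts was not tested.

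Chains that share a trimer were compared through the ratio of their FPKM in each library. The ratio of Col5a1 to Col5a2 was 0.736, 0.729 and 0.768 in DMSO and 1.01, 0.949 and 0.938 in IPRN. It was thus higher in every IPRN library, with means of 0.745 ± 0.0208 and 0.965 ± 0.0375, a 1.30-fold difference (1.27-fold to 1.32-fold with any library left out). The ratio of Col6a1 to Col6a2 also did not overlap, at 2.93 ± 0.0303 in DMSO and 3.09 ± 0.0138 in IPRN, but differed only 1.05-fold. The ratios of Col1a1 to Col1a2 (2.02 ± 0.0125 and 1.98 ± 0.0477) and of Col4a1 to Col4a2 (1.06 ± 0.0962 and 0.997 ± 0.0765) overlapped between groups. IPRN 1, which stood apart in the type I levels, had a Col1a1 to Col1a2 ratio of 1.93, below all others. Per kilobase of the transcript with the longest coding sequence the Col1a1 to Col1a2 ratio was 0.960 in DMSO and 0.944 in IPRN. On the same scale the Col6a1 to Col6a2 ratio was 1.48 in DMSO and 1.56 in IPRN. Col5a1 to Col5a2 then stood at 0.524 in DMSO and 0.679 in IPRN, and Col4a1 to Col4a2 at 1.16 and 1.10. The size of each ratio thus rests on the length used, while a fixed length per gene cancels out of the fold difference between groups. The ratio of Col3a1 to Col1a1, chains of mixed fibrils, went from 0.146 ± 0.00260 to 0.115 ± 0.00802. These ratios were described without a test.

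**Figure D4:**
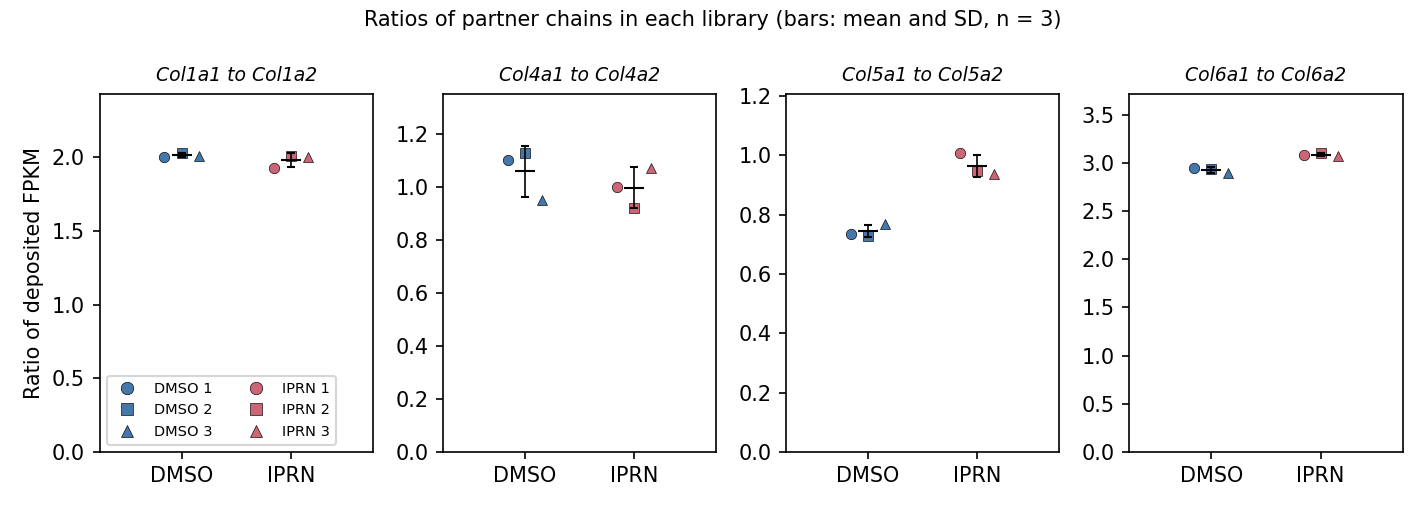
Ratio of the deposited FPKM of chains that share a trimer, in each DMSO (blue) and IPRN (red) library, with the mean and SD of each group (n = 3) and axes starting at 0. The Col5a1 to Col5a2 ratio is 0.729 to 0.768 in DMSO and 0.938 to 1.01 in IPRN, and the Col1a1 to Col1a2 and Col4a1 to Col4a2 ratios overlap.

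Genes that fold, export, process, bind and degrade collagen were read from 7 lists, given by their counts beside the 2.46% of all genes called higher and 3.01% called lower. Of 18 tested folding and modification enzymes, 2 rose and 0 fell (edgeR, with 7 higher and 5 lower at an unadjusted p under 0.05; DESeq2 called 5 higher and 3 lower), with a median log2 fold change of 0.01. Those that rose were P3h1, a prolyl 3-hydroxylase (0.26 ± 0.048, adjusted p = 0.0309), and Fkbp10, a collagen chaperone of the endoplasmic reticulum (0.25 ± 0.050, adjusted p = 0.0390). Fkbp10 shares 6.58% of its exon bases with Nt5c3b on the opposite strand. Nt5c3b held 3288 to 3977 counts per library, against 13026 to 19245 for Fkbp10. Of 14 genes on the export list, 1 rose and 0 fell (unadjusted 2 higher and 1 lower, DESeq2 1 and 0), with a list median of 0.03. The gene that rose was Creb3l1, a transcription factor of secretory cells known to act on type I collagen genes in bone (0.42 ± 0.079, adjusted p = 0.0325). The other 13 genes on the list were not called.

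Of 12 tested genes of cleavage and crosslinking, 2 rose and 0 fell (unadjusted 3 and 0; DESeq2 2 and 0), with a median of 0.14. Adamts2, which removes the amino-terminal propeptide of fibrillar procollagens, rose 1.23-fold (adjusted p = 0.0284), and Bmp1, which removes the carboxy-terminal propeptide, rose 1.26-fold (adjusted p = 0.0367). Of 14 receptors, 1 rose and 0 fell (unadjusted 5 and 2; DESeq2 3 and 0), Mrc2, an endocytic receptor for collagen, by 1.27-fold (adjusted p = 0.0132), with a median of 0.19. Of 17 basement membrane partners, 2 rose and 2 fell (unadjusted 2 and 3; DESeq2 2 and 2), with a median of 0.01. Hspg2, which encodes perlecan, rose 1.28-fold from 777.3 ± 26.3 to 993.0 ± 54.3 CPM (adjusted p = 0.0204). Agrn (agrin) rose 1.34-fold (adjusted p = 0.0276), while Lama4, a laminin chain, fell by 0.37 on the log2 scale (adjusted p = 0.0117).

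Of 18 tested fibril-associated partners, 2 rose and 8 fell (unadjusted 5 and 10; DESeq2 4 and 9), with a median of -0.26. The genes of fibrillin 1 (Fbn1) and fibronectin (Fn1) rose. The members that fell were the small leucine-rich proteoglycans Dcn, Lum, Ogn and Prelp, with Dpt, Postn, Thbs1 and Thbs2, and the smallest adjusted p belonged to Lum, Thbs1 and Postn (log2 fold changes of -1.49, -0.49 and -0.71). Exon bases of Fbn1 (20.1%), Prelp (9.68%), Thbs1 (3.42%) and Fn1 (2.50%) are shared with models on the opposite strand, so their values are uncertain in those bases. The models held 28 to 142, 0, 13 to 32 and 0 to 29 counts per library, in that order. Of 9 tested collagenases and their inhibitors, Mmp14, a membrane-bound collagenase, rose 1.23-fold (adjusted p = 0.0214), and Mmp13, a secreted collagenase, fell from 1.29 ± 0.177 to 0.0601 ± 0.0622 CPM (adjusted p = 0.0400), with a list median of 0.09. At an unadjusted p under 0.05, 3 of the 9 were higher and 2 lower, and DESeq2 called 2 higher and 0 lower, where the adjusted p of Mmp13 was NA. Of the partners named, Lum, Thbs1, Postn, Dcn and Fbn1 kept their calls whichever library was dropped, and the others were called in 1 to 3 of the 6 such fits.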

How the data were processed

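Polyadenylated RNA of 6 NIH3T3 libraries was fragmented, reverse transcribed from random primers and amplified; this protocol, per the labels, does not mark strand. The authors deposited 1 table per library with a raw count and an FPKM per gene, per the file headers. Cutadapt 1.9 was used, per the submitters' processing notes. The aligner, the counter, its strand handling, the build and the annotation were not given in the sources used here. GENCODE M21 holds 55141 of the gene IDs, and 94.2% of these had the same position on GRCm38 (38 of the 44 collagen chains), so that build is named. FPKM was used for levels and ratios only, and count and FPKM implied the same length per gene in all libraries (median SD of 0.00051 on the log2 scale over 11592 genes).

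The count test used edgeR 4.0.16 under R 4.3.3, with TMM factors, the expression filter at a minimum count of 10, and the two-sided quasi-likelihood test of group, adjusted by Benjamini-Hochberg over all 17159 genes tested. All adjusted p-values are from this test unless DESeq2 1.42.0 is named. The test was checked on simulated data. Standard errors come from the fold change and the F statistic. The named genes were all tested chains of the first 3 classes, the called chains, the 5 most abundant of the others and called members of the partner lists, with values for up to 3 per list. A gene that meets this rule is not reported here by name. The members, classes and lists were chosen with earlier results of these data known. Each library was counted as a sample. Replicate counts differed by more than sampling noise, which does not show that they came from separate cultures.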

Additional observations from a re-analysis of the deposited data

How the results depend on the processing

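The count of 5 chains called was 9 in DESeq2, 1 with a replicate block, 0 without DMSO 1 and IPRN 3 together (the libraries almost free of liver transcripts) and 2 to 8 with each library left out in turn (2 without DMSO 1, DMSO 2 or IPRN 3, 3 without DMSO 3, 4 without IPRN 2, 8 without IPRN 1). By direction, the 5 higher became 1 with the block, 0 without both libraries and 2 to 7 with 1 left out, and the 0 lower became 1 with relative log expression factors, 2 in DESeq2, 1 with a filter at a mean of 50 counts and 0 to 1 with 1 left out. The fibrillar count of 2 was 1 with the block, 0 without both libraries and 1 to 5 with 1 left out; the basement membrane count of 2 was 0, 0 and 1 to 2. The count of 1 among other types was 2 with relative log expression factors, 4 in DESeq2, 0 with no filter, 3 at the mean of 50, 0 with the block, 0 without both libraries, 0 with a term for liver transcripts and 0 to 1 with 1 left out. The microfibrillar count was 0 throughout. Over all genes the 938 calls became 2312 in DESeq2, 621 with no filter, 103 with the block, 53 without both libraries, 429 with the liver term and 133 to 1047 with 1 left out, and the 22 called partners became 5 with the block, 2 without both libraries and 5 to 26 with 1 left out. Of 422 single-chain values under these alternatives, 369 kept their direction and their side of the threshold, 24 lost the call and 11 gained it, and 18 values of 9 chains that were not called changed sign. These log2 fold changes turned to -0.38 for Col4a3 with the block, to -0.20 for Col4a4 without both libraries and to 0.0049 for Col9a3 with library totals. With 1 library left out the log2 fold changes of these 9 chains ran from -1.30 to 0.68 for Col4a3, -0.39 to 1.51 for Col4a4, -0.13 to 0.068 for Col4a6, -0.028 to 0.066 for Col11a1, -0.30 to 0.22 for Col9a3, -0.016 to 0.069 for Col12a1, -0.062 to 0.012 for Col16a1, -0.0054 to 0.48 for Col17a1 and -0.38 to 0.040 for Col18a1. The labels do not say that a number pairs libraries, and deviations of same-numbered libraries from their group means correlated at -0.07, 0.01 and -0.06. The ratio changes kept their direction: with 1 library left out they ran from 0.975 to 0.997 for type I, 0.895 to 0.978 for type IV, 1.27 to 1.32 for type V and 1.05 to 1.06 for type VI. The transcript lengths were chosen after seeing the data. The cause of these shifts was not tested, except that the fits without libraries hold fewer samples. Depth limits statements on chains with few counts, such as Col2a1, Col4a3 and Col4a4.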
